A study of Mus musculus with 4 samples.

Results

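The genes of the Wnt pathway that act outside the cell or at its surface were read in single cells of mouse long bone. They comprise the Wnt ligands, their Frizzled receptors and LRP co-receptors, the R-spondins and their LGR receptors, the secreted antagonists, and the feedback and target genes Axin2 and Lef1. They were taken by symbol, and 52 of the 53703 features matched: 19 ligands, 12 receptors or co-receptors, 7 genes of the R-spondin axis, 11 secreted antagonists, 2 feedback or target genes and the antisense transcript Fzd10os. The study compared 2 libraries of Lats2iΔEC mutants with 2 libraries of controls, all from mice aged 12 weeks. The mutants carried floxed Lats2 alleles and the tamoxifen-inducible Cdh5-CreERT2 transgene, which is active in endothelial cells (ECs). The controls were Cre-negative littermates, and per the study's methods these also received tamoxifen. Cells came from the metaphysis of femur and tibia, were depleted of hematopoietic lineages and were profiled by droplet-based 3′ RNA sequencing, in which each unique molecular identifier (UMI) marks 1 captured transcript. The transgene is driven by the promoter of Cdh5, an endothelial gene, and its sequence was nearly absent from the other cell types.

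Wnt ligands are lipid-modified, secreted proteins that bind a Frizzled receptor, either with the co-receptors LRP5 and LRP6, which stabilises β-catenin, or without them, as WNT5A and WNT5B mostly do. R-spondins bind LGR receptors and raise the amount of Frizzled at the cell surface, whereas SFRP proteins, FRZB and WIF1 bind Wnt proteins, DKK1 blocks LRP5 and LRP6, and NOTUM removes the lipid of the ligand. In bone, β-catenin signaling favors osteoblasts, and in the growth plate the balance of ligands and antagonists accompanies the passage of chondrocytes from resting to hypertrophic.

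The libraries held 69636600 and 78953446 UMIs in the mutants and 83453507 and 85899079 in the controls, and 5119, 5887, 6813 and 6780 cells passed the filters. Marker lists gated 18591 of these 24599 cells (75.6%) into 9 classes: ECs, diaphyseal and metaphyseal mesenchymal stromal cells (dpMSCs and mpMSCs), osteoblast-lineage cells (OBs), smooth muscle cells and pericytes (SMCs), hypertrophic, growth plate and articular chondrocytes (HCHOs, GPCHOs and ACHOs) and fibroblasts. The share in a class was 72.0% and 70.9% in the mutants and 79.0% and 78.9% in the controls. Cells left out for markers of several classes numbered 619 and 803 in the mutants and 535 and 569 in the controls. Sizes differed between groups: HCHOs numbered 788 and 842 in the mutants but 150 and 132 in the controls, and OBs 115 and 136 against 612 and 631. Within several classes the groups also fell into different clusters. Of the mutant HCHOs, 70.2% lay in a cluster numbered 1, whereas 94.0% of the control HCHOs lay in cluster 2, which held 9.02% of the mutant ones. Cluster 2, led by Matn1, F13a1 and Panx3, was itself not named hypertrophic from the markers but lay between the chondrocyte subtypes, whereas clusters 1 and 4 were named so and together held 7 and 15 cells of the 2 control libraries. HCHOs below therefore means the cells that passed the HCHO gate, and a comparison of them sets mutant cells mostly of a hypertrophic cluster against control cells mostly of that intermediate one. Their median depth was 8519 UMIs per cell in the mutants and 16590 in the controls. In ECs the 3 largest clusters of the mutants, with 73.5% of their cells, and the 3 largest of the controls, with 70.4%, had none in common. In mpMSCs, 57.9% of the mutant cells lay in cluster 7, led by Mmp9 and Mmp13, and 53.6% of the control cells in cluster 18. With cells assigned by cluster in place of gates, mutant mpMSCs numbered 413 and 481, against 184 and 229 by gates. The control mpMSCs numbered 432 and 462 by cluster and 460 and 464 by gates. In GPCHOs, 41.0% of the mutant cells lay in cluster 3, which held 14.0% of the control ones, and 34.1% of the control cells lay in cluster 38. Cluster 2, which held most control HCHOs, was among the 3 largest clusters of the mutant GPCHOs but not of the control ones. A difference in a class may therefore be a change within cells or a change in which cells the class holds, and these cannot be told apart from class sums alone. Values below called those of the shared cluster are from the 1 cluster of the class best filled by all 4 libraries, where that fit could be made. In ECs this is cluster 32, with 22.7% of the mutant and 12.3% of the control ECs. The arterial markers Gja5, Sema3g and Bmx are among its leading genes, so its values speak for arterial cells and not for all ECs. Lats2 itself was counted in ECs at 92.3 and 96.7 CPM, the counts per 1000000 UMIs of the class in a library, in the mutants and 134 and 123 in the controls (log2 fold change −0.37, nominal standard error (SE, derived from the test as described below) 0.080, adjusted p = 0.00502, edgeR quasi-likelihood test). Its relative Lats1, which was not targeted, fell as much (−0.39, adjusted p = 0.0220). Where the counted 3′ reads lie relative to the floxed part was not examined, so these values do not check the deletion. The paper reports a strong reduction of endothelial Lats2 in the mutants, in transcript and in protein. The Cre-ERT2 sequence was counted in ECs at 54.1 and 49.4 CPM in the mutants and 0.683 and 0.898 in the controls, and at no more than 0.665 CPM in any library of the other classes.

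Sequences are given for the promoters of 3 members whose differences in a class kept their direction and their call under every alternative that gave a value: Dkk1 and Wnt5b in HCHOs and Wif1 in 4 classes. For Dkk1 neither the fit in the shared cluster nor that with clusters in place of gates gave a value, so no alternative that addresses cluster membership bears on it. Each is the 250 bases before a RefSeq transcript start, placed on GRCm39 by matching, with capitals for a TCF/LEF motif (CTTTGAT or CTTTGAA, on either strand), the kind of site that β-catenin's partners bind. Dkk1 (chr19:30526897-30527146, minus strand) has CTTTGAA starting 117 bases before the transcript start. Wnt5b (chr6:119426348-119426597, minus strand, 1 of its 3 promoters in the table) has CTTTGAT starting 71 bases before it, and its other promoters have neither. Wif1 (chr10:120869659-120869908, plus strand) has neither. By the GENCODE annotation these stretches are not all upstream of the gene. The Dkk1 gene (chr19:30523263-30527065) covers its motif, and the Wnt5b gene (chr6:119409323-119521897) covers all 3 of its promoters. The Wif1 gene starts at 120869865, inside its stretch. Other members met the same condition, among them Frzb in ACHOs, Sfrp2, Sfrp5 and Fzd2 in GPCHOs and Fzd4 in dpMSCs. The promoters of Frzb, Sfrp2, Sfrp5 and Fzd4 have no TCF/LEF motif, and Fzd2 was not in the table.
Dkk1: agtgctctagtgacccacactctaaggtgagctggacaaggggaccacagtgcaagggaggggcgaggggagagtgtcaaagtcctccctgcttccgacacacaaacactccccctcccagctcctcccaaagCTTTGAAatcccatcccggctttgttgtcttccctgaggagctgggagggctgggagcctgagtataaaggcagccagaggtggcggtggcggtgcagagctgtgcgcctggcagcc
Wnt5b: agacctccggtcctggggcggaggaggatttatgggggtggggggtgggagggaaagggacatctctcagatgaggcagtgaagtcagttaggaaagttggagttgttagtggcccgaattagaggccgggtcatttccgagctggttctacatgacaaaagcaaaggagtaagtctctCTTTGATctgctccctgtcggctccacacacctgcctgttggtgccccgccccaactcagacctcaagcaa
Wif1: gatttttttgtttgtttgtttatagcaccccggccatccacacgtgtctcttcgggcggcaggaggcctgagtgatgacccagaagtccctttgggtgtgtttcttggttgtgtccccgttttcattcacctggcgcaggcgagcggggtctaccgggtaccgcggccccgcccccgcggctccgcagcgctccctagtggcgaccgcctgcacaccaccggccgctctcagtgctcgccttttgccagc
The table matched 33 of the 52 members with 39 promoters. A TCF/LEF motif was in 3 of these 39 (7.69%; Dkk1, Wnt11 and Wnt5b) and in 7.48% of all 32851 promoters, and the TEAD motif GGAATG was in 1 of 39 (2.56%; Lgr4) and in 12.6% of all. These are matches of letters and not binding sites.

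Of the 52 members, 42 passed the filter on low counts in at least 1 class, 11 passed it in all 9, and 10 (Dkk4, Rspo1, Wnt10a, Wnt2, Wnt3, Wnt3a, Wnt7a, Wnt8a, Wnt8b and Wnt9b) passed in none. A call here is an adjusted p of at most 0.05 in edgeR's quasi-likelihood test of summed counts, adjusted over all genes tested in the class. Of 244 pairs of a member and a class that were tested, 88 were called; 37 members were called in at least 1 class, and 11 were called higher in one class and lower in another. The tested members that were called in no class were Fzd10, Fzd10os, Wnt1, Wnt16 and Wnt6. Members that passed the filter through the group where they are high had to differ, so these counts are descriptions.

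The chondrocyte classes held most calls. In GPCHOs 27 of 37 members were called, 20 higher and 7 lower in the mutants, where 34.8% of all 16229 genes were called, 19.1% higher and 15.7% lower. The median log2 fold change was 0.57 over the members and −0.01 over all genes tested. In HCHOs 18 of 30 were called, 6 higher and 12 lower (all genes 40.6%, with 20.8% higher and 19.8% lower), with medians of −0.34 and 0.01. In ACHOs 4 of 25 were called, 3 higher and 1 lower (all genes 3.40%, with 2.09% higher and 1.31% lower). In dpMSCs 12 of 30 were called, 7 higher and 5 lower (all genes 22.5%, with 12.0% higher and 10.5% lower), and in mpMSCs 10 of 24, 3 higher and 7 lower (all genes 20.8%, with 11.4% higher and 9.32% lower). In OBs 4 of 28 were called, all higher (all genes 5.30%, with 4.06% higher and 1.25% lower), and in SMCs 7 of 16, 3 higher and 4 lower (all genes 25.1%, with 13.5% higher and 11.7% lower).

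In ECs, the class that carries the deletion, 6 of 23 members were called, 2 higher and 4 lower, where 35.8% of all genes were called (18.6% higher and 17.2% lower). The count was 7 to 10 when 1 library was left out, with 10 without mutant replicate 1, and 10 with clusters in place of gates and 12 without a filter on low counts. The share of all genes under those settings is not given here, so the members' share is not read against 35.8%. In fibroblasts none of 31 was called by edgeR, with 6 at an unadjusted p under 0.05. Of all genes, 1.63% were called there (1.13% higher and 0.493% lower). DESeq2 called 0 members there, and clusters in place of gates called 2. A fit with the replicate number as a block called 6, among them Sfrp4 (−0.89, adjusted p = 5.62e-08). How many of all genes these other fits called is not given here, so their counts are not read as results about the members. Without mutant replicate 1 no member was called in SMCs, and in OBs 1 was called without mutant replicate 2 and 1 without control replicate 1. In the best-shared cluster of each class, 69 of the 88 calls could be tested: 55 kept their sign, 14 took the other sign, and 20 were called there with the same sign. DESeq2 did not call Wnt10b in OBs and HCHOs, Wnt11 in dpMSCs and GPCHOs, Wnt2b, Fzd4, Lgr5, Axin2, Dkk2 and Sfrp4 in GPCHOs, Wnt5a in either MSC class, Wnt5b, Fzd2, Rspo2 and Lef1 in mpMSCs, Wnt9a and Dkk2 in ECs, Fzd1, Fzd8 and Sfrp4 in HCHOs, Fzd2 in ACHOs, Fzd2, Fzd3 and Fzd7 in SMCs, Lrp5 and Sfrp2 in dpMSCs, Lgr4 in dpMSCs, mpMSCs and SMCs, or Lgr6 and Dkk1 in OBs, and gave no adjusted p for Rspo3 in ECs.

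**Figure D1:**
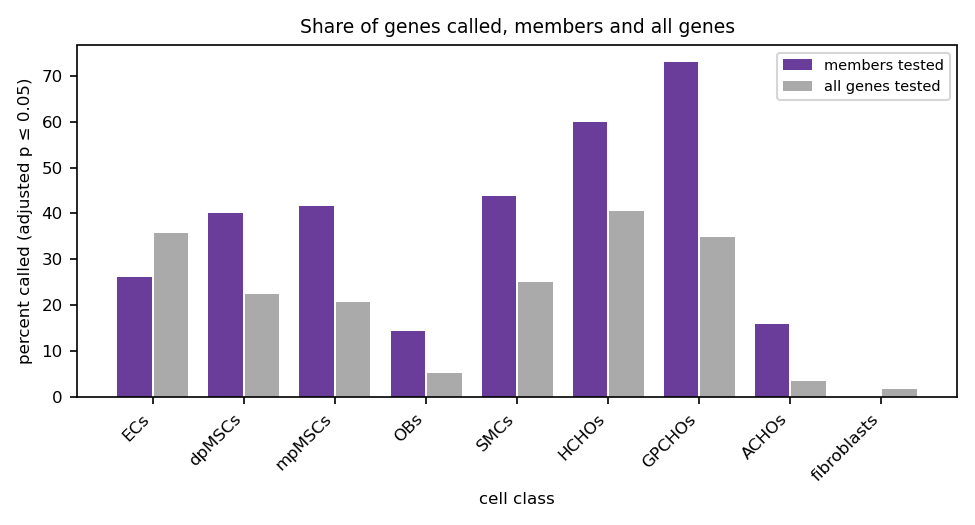
Share of genes called different between mutants and controls (adjusted p of at most 0.05, edgeR), in percent, in each class, for the Wnt members tested and for all genes tested. In this fit the members' share is above that of all genes in dpMSCs, mpMSCs, OBs, SMCs, HCHOs, GPCHOs and ACHOs. It is lower in ECs (6 of 23) and in fibroblasts (0 of 31, where 1.63% of all genes were called). The counts of members in ECs, OBs, SMCs and fibroblasts changed with the fit, as the text describes, so their shares are not read as results about the members.

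**Figure D2:**
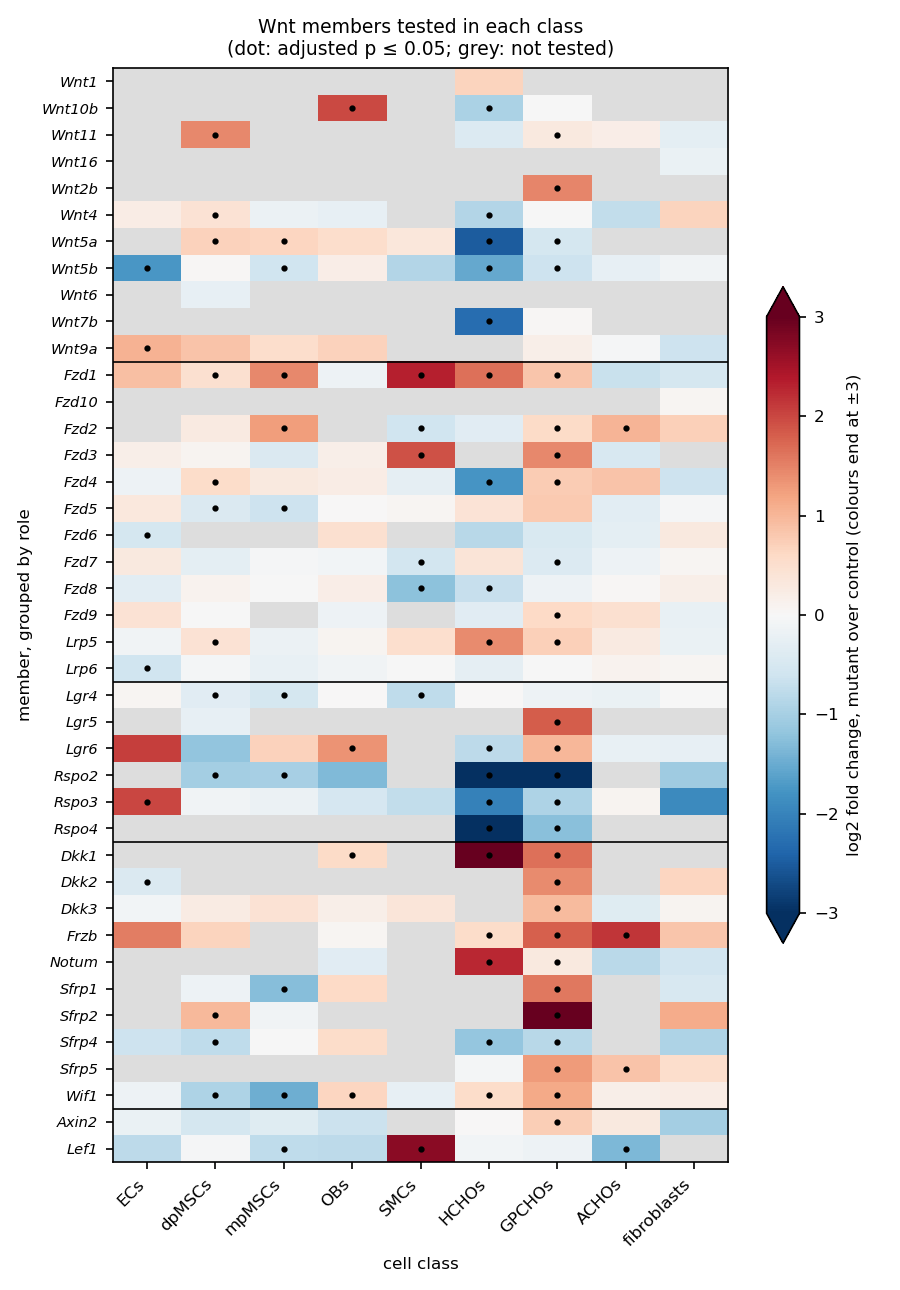
Log2 fold change, mutants over controls, of the members tested in at least 1 of the 9 classes, ordered by role; Fzd10os is not drawn. Secreted antagonists are mostly higher in GPCHOs, and ligands and R-spondins are mostly lower in HCHOs.

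Among the ligands, Wnt5b was called lower in 4 classes. In HCHOs it was counted at 195 and 181 CPM in the mutants and 533 and 542 CPM in the controls. Both mutants lay below both controls (log2 fold change −1.54, SE 0.079, adjusted p = 2.77e-08, edgeR), and in cluster 2, which both groups share, the value was −0.75 (adjusted p = 0.00124). In GPCHOs Wnt5b was at 81.3 and 86.0 CPM in the mutants and 144 and 131 CPM in the controls (−0.63, adjusted p = 3.77e-06, edgeR), and the shared cluster gave −0.42 (adjusted p = 0.0584). In ECs it was at 4.29 and 8.12 against 29.96 and 15.3 CPM, again without overlap (−1.75, SE 0.35, adjusted p = 0.00299, edgeR). No shared-cluster value could be had for it in ECs, and in arterial ECs, with 10 counts in the mutants and 1 in the controls, the levels overlapped, at 0.813 and 5.95 against 0.837 and 0 CPM. All ECs held 72.25 Wnt5b counts in the mutants and 260.5 in the controls. The arterial subset holds few of these and does not show where in ECs the difference lies. In mpMSCs Wnt5b fell by 0.60 on the log2 scale (adjusted p = 0.00667, edgeR), a call that was lost without mutant replicate 2 (adjusted p = 0.116) or control replicate 1 (adjusted p = 0.0575), and the shared cluster gave −0.31 (adjusted p = 0.646).

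Wnt5a, its close relative, was called lower in both growth plate classes and higher in both MSC classes. In HCHOs the mutants had 8.33 and 7.09 CPM and the controls 48.0 and 37.0 (log2 fold change −2.49, SE 0.18, adjusted p = 5.47e-07, edgeR), and in GPCHOs 11.3 and 12.4 against 18.0 and 18.0 (−0.52, adjusted p = 0.00206). In the shared clusters these values were −0.63 (adjusted p = 0.0718) and 0.01 (adjusted p = 0.985). In dpMSCs Wnt5a rose by 0.68 (adjusted p = 0.0228), a call kept in 2 of the 4 fits that leave out a library, and the shared cluster gave −0.03 (adjusted p = 0.976). In mpMSCs it rose, with 40.6 and 37.6 CPM in the mutants and 28.4 and 23.6 in the controls (0.64, adjusted p = 0.0113, edgeR) and the call was lost without control replicate 2 (adjusted p = 0.133), and the value in the shared cluster was −0.10 (adjusted p = 0.956).

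Wnt4, a ligand of prehypertrophic and hypertrophic chondrocytes, stood in HCHOs at 72.8 and 77.5 CPM in the mutants and 152 and 120 in the controls. The mutants were lower without overlap (log2 fold change −0.88, SE 0.10, adjusted p = 3.23e-05, edgeR), but in the shared cluster the value was 0.30 (adjusted p = 0.206). In GPCHOs Wnt4 was not called (−0.01, adjusted p = 0.910), but was called higher in the shared cluster (0.43, adjusted p = 0.0296). In dpMSCs Wnt4 rose, from 83.2 and 96.3 CPM in the controls to 126 and 111 in the mutants (0.43, adjusted p = 0.00168), with 0.25 in the shared cluster (adjusted p = 0.209). Wnt7b, which acts in osteoblast formation, was at 2.26 and 2.32 CPM in the mutant HCHOs and 7.10 and 15.3 in the control ones (−2.27, SE 0.38, adjusted p = 0.000477, edgeR). It was counted in 1.29% and 3.19% of these cells, and its value in the shared cluster was −0.83 (adjusted p = 0.281).

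The remaining ligands past both thresholds rested on few counts. Wnt10b, which promotes osteoblast formation, was at 3.62 and 6.22 CPM in the mutant OBs and 0.810 and 1.69 in the control OBs (log2 fold change 1.97, adjusted p = 0.0286, edgeR), and the shared cluster gave 1.92 (adjusted p = 0.04955). Leaving out mutant replicate 2, control replicate 1 or control replicate 2 gave adjusted p values of 0.312, 0.604 and 0.313, and assignment of cells by cluster gave 0.0996. In HCHOs Wnt10b was called lower, at 2.98 and 3.02 against 5.43 and 6.02 CPM (−0.94, adjusted p = 0.0414), a call lost without any 1 of the 4 libraries. Wnt11 was at 4.80 and 4.39 against 1.65 and 1.80 CPM in dpMSCs (1.44, adjusted p = 0.00536), with a p of 0.0604 without control replicate 1. In HCHOs Wnt11 was not called (−0.42, adjusted p = 0.172), but in the shared cluster it was called higher (1.58, adjusted p = 0.00218). Wnt9a in ECs was at 6.46 and 6.53 against 3.76 and 2.88 CPM (1.04, adjusted p = 0.0170), with 0.0963 without control replicate 2. Wnt2b in GPCHOs had 24 counts in the mutants and 10 in the controls, and its call (1.46, adjusted p = 0.0392) was lost when any 1 library was left out (0.0615 to 0.319). Wnt6 was tested in dpMSCs, where it was not called (−0.24, adjusted p = 0.730). It did not pass the filter in mpMSCs, but had 12 counts in mutant mpMSCs and 0 in control mpMSCs. The mutant level is 9.48 times that of an assumed floor of 3 counts over the control group. This ratio leaves out counting error and is no bound.

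Of the receptors, Fzd1 was called higher in 5 classes. In SMCs it was counted at 61.2 and 76.0 CPM in the mutants and 16.9 and 11.1 in the controls (log2 fold change 2.34, SE 0.22, adjusted p = 3.28e-06, edgeR). In the pericyte-like subset, for which no test was made, the levels were 93.2 and 116 against 25.2 and 12.0 CPM, whereas in contractile SMCs they were 11.4 and 10.2 against 13.3 and 11.4. Pericyte-like here means only a score for Rgs5, Kcnj8, Abcc9, Higd1b and Ndufa4l2 above that for contractile markers. The groups filled different SMC clusters, with 37.0% of the mutant cells in cluster 6 and 66.8% of the control cells in cluster 20. Cluster 6 was led by Tmem273, Sorcs1 and Doxl1, whereas Rgs5 and Higd1b led cluster 19. The paper regards Myh11-negative SMCs, enriched in its mutants, as likely myofibroblasts, and whether the subset holds such cells was not tested. Without mutant replicate 1 the SMC value was 2.50 with an adjusted p of 0.0681. In mpMSCs Fzd1 was at 36.6 and 33.6 CPM in the mutants and 13.6 and 12.97 in the controls, with no overlap (1.45, SE 0.20, adjusted p = 2.88e-05), and 0.96 in the shared cluster (adjusted p = 0.356). It also rose in dpMSCs (0.49, adjusted p = 8.80e-05) and in GPCHOs (0.83, adjusted p = 0.00041), where the shared clusters gave 0.24 (adjusted p = 0.213) and 0.85 (adjusted p = 0.0673). In HCHOs it was called at 1.66 (adjusted p = 0.0183), and the p was 0.0625 without mutant replicate 1 and 0.130 without control replicate 2.

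Other Frizzled receptors moved in both directions. Fzd2 was at 29.4 and 32.3 CPM in mutant ACHOs and 16.01 and 15.4 in control ACHOs (log2 fold change 1.03, SE 0.18, adjusted p = 0.0126, edgeR), with 1.65 in the shared cluster (adjusted p = 0.158) and an adjusted p of 0.0947 without a filter on low counts. It rose in GPCHOs by 0.57 (adjusted p = 8.71e-05), where the shared cluster gave 0.61 (adjusted p = 0.0301). In SMCs Fzd2 was lower, at 22.1 and 25.99 against 40.02 and 35.2 CPM (−0.60, adjusted p = 0.0342), with 0.045 in the shared cluster (adjusted p = 0.941), and the call was kept in 1 of the 4 fits that leave out a library. In mpMSCs it also rose (1.25, adjusted p = 0.0203), but with p values of 0.0865 to 0.391 when mutant replicate 2, control replicate 1 or control replicate 2 was left out. Fzd3 in GPCHOs was at 5.96 and 6.39 against 2.75 and 2.05 CPM (1.45, adjusted p = 0.000218), and at 0.34 in the shared cluster (adjusted p = 0.547). In SMCs Fzd3 was called at 1.92, a call lost without any 1 of the 4 libraries (adjusted p 0.0536 to 0.131). Fzd4 fell in HCHOs, from 13.4 and 11.1 CPM in the controls to 2.86 and 4.42 in the mutants (−1.77, SE 0.29, adjusted p = 0.000434), with −0.47 in the shared cluster (adjusted p = 0.367). In dpMSCs, by contrast, Fzd4 stood at 41.1 and 36.4 against 25.2 and 29.0 CPM (0.55, adjusted p = 0.00264), and the shared cluster gave 0.56 (adjusted p = 0.0480).

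Fzd5 fell in both MSC classes. It was at 78.9 and 81.8 against 115 and 108 CPM in dpMSCs (log2 fold change −0.43, adjusted p = 0.00047, edgeR) and at 54.5 and 52.6 against 89.9 and 80.2 CPM in mpMSCs (−0.61, adjusted p = 0.00149). The shared clusters gave −0.11 and −0.19, neither called. Fzd8 fell in SMCs, with 10.6 and 11.6 CPM in the mutants and 28.1 and 25.6 in the controls (−1.22, adjusted p = 0.00176, and 0.0940 without mutant replicate 1), and in HCHOs (−0.70, adjusted p = 0.0029). Fzd7 fell in GPCHOs (−0.41, adjusted p = 0.00282), where the shared cluster gave 0.09 (adjusted p = 0.802). Fzd9 rose there (0.61, adjusted p = 4.83e-06), with 71.7 and 71.4 CPM in the mutants and 49.9 and 49.7 in the controls, and 0.13 in the shared cluster (adjusted p = 0.582). In HCHOs Fzd9 was not called (−0.34, adjusted p = 0.234), but in the shared cluster it was called higher (1.45, adjusted p = 0.00439).

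In ECs 2 of the 10 receptors tested were called, both lower (17.2% of all genes were called lower). Fzd6, which takes part in planar polarity signaling, was at 51.3 and 47.6 CPM in the mutants and 80.6 and 69.9 in the controls (log2 fold change −0.53, SE 0.090, adjusted p = 0.00124, edgeR), and the shared cluster gave −0.85 (adjusted p = 0.00707). The co-receptor Lrp6 was at 53.7 and 58.3 CPM in the mutants and 91.9 and 88.4 in the controls (−0.60, SE 0.081, adjusted p = 0.000286). All of its EC levels in the mutants lay below the controls, and so did those in the arterial, capillary and sinusoidal subsets, but the shared cluster, which is arterial, gave −0.08 (adjusted p = 0.898). In the other 8 classes Lrp6 was not called (adjusted p 0.0757 to 0.944), but it was called lower in the shared GPCHO cluster (−0.39, adjusted p = 0.0438) and in HCHOs with the cell filter of UMIs and genes only (−0.31, adjusted p = 0.0429). The other co-receptor, Lrp5, was at 33.1 and 32.0 CPM in mutant HCHOs and 10.9 and 13.4 in control HCHOs (1.41, SE 0.17, adjusted p = 4.20e-05), with 0.29 in the shared cluster (adjusted p = 0.623). It rose too in GPCHOs (0.70, adjusted p = 0.00132) and in dpMSCs (0.43, adjusted p = 0.00551, and 0.0591 without mutant replicate 2). The shared clusters gave 0.57 (adjusted p = 0.114) and 0.13 (adjusted p = 0.794), and assignment by cluster gave 0.090 in dpMSCs (adjusted p = 0.676). In SMCs Lrp5 was not called (0.49, adjusted p = 0.0755, edgeR), nor in the shared cluster (0.22, adjusted p = 0.789). It was called there with cells assigned by cluster (0.66, adjusted p = 0.00477), with the replicate block (0.50, adjusted p = 0.0433) and with doublets left out (0.53, adjusted p = 0.0413).

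The R-spondins amplify Wnt signaling, and 3 of them were called lower in the growth plate classes, where 15.7% (GPCHOs) and 19.8% (HCHOs) of all genes were called lower. Rspo2 was called in both MSC classes too. In dpMSCs it was counted at 243 and 297 CPM in the mutants and 574 and 559 in the controls (log2 fold change −1.03, SE 0.070, adjusted p = 4.56e-08, edgeR). The difference was not found inside the shared cluster, cluster 5, where the mutants had 356 and 416 CPM and the controls 383 and 335 (0.14, adjusted p = 0.397), whereas in cluster 26, which held 24 and 32 mutant cells but 701 and 604 control cells, Rspo2 was at 522 and 509 against 926 and 1000 CPM. In mpMSCs it was at 13.3 and 22.0 against 31.1 and 44.1 CPM (−0.99, adjusted p = 0.00569), with −1.06 in the shared cluster (adjusted p = 0.517). In GPCHOs there were 4 Rspo2 counts in the mutants and 91 in the controls, a control-to-mutant ratio of 20.7 (exact 95% interval 7.81 to 77.6). When cells were assigned by cluster, the GPCHO log2 fold change was −1.28 (adjusted p = 0.128, edgeR) against −4.21 with gates. In HCHOs the counts were 3 against 30, a ratio of 37.4 (11.6 to 191). The intervals cover counting error only; Rspo2 was seen in 0.123% and 2.13% of mutant and control HCHOs, and empty droplets of the controls gave 0.694 CPM.

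Rspo3 and Rspo4 were also lower in the growth plate classes. Rspo3 in HCHOs was at 17.9 and 16.9 CPM in the mutants and 78.1 and 60.6 in the controls (log2 fold change −2.02, SE 0.14, adjusted p = 2.33e-07, edgeR), and the shared cluster gave −0.77 (adjusted p = 0.0259). In GPCHOs it was at 69.7 and 68.3 against 143 and 136 CPM (−0.93, adjusted p = 6.03e-08), but in the shared cluster it was higher in the mutants (0.67, adjusted p = 0.0122). Rspo4 was at 1.55 and 1.63 against 10.0 and 15.7 CPM in HCHOs (−3.01, SE 0.34, adjusted p = 2.15e-05), with −0.98 in the shared cluster (adjusted p = 0.125), and at 29.9 and 22.7 against 64.8 and 68.2 CPM in GPCHOs (−1.26, adjusted p = 7.81e-07), with 0.73 in the shared cluster (adjusted p = 0.0578). In ECs Rspo3 was at 3.43 and 3.98 CPM in the mutants and 0.341 and 1.62 in the controls (2.00, adjusted p = 0.0139), with 0.0989 without control replicate 1 and a value of −0.58 when cells were assigned by cluster in place of gates.

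Of the R-spondin receptors, Lgr6 took opposite directions in neighbouring classes. In GPCHOs it was at 40.4 and 38.3 CPM in the mutants and 23.4 and 18.7 in the controls (log2 fold change 0.99, SE 0.097, adjusted p = 5.55e-06, edgeR), and in HCHOs at 47.6 and 56.9 against 78.5 and 99.5 (−0.78, adjusted p = 0.000504), with −0.20 in the shared cluster (adjusted p = 0.568). In the shared GPCHO cluster, however, Lgr6 was lower in the mutants (−0.83, adjusted p = 0.0246). In OBs it was at 8.46 and 19.6 against 5.22 and 6.17 CPM (1.34, adjusted p = 0.0149). The log2 fold change fell to 0.52 without mutant replicate 2, and the shared cluster gave 1.36 (adjusted p = 0.04785). Lgr4 fell in dpMSCs (−0.34, adjusted p = 0.0140, with 0.123 without mutant replicate 1 and 0.0966 with cells assigned by cluster) and in mpMSCs, where it was at 55.2 and 65.1 against 89.1 and 93.4 CPM (−0.53, adjusted p = 0.00367). The shared clusters gave −0.13 (adjusted p = 0.731) and −0.50 (adjusted p = 0.319). In SMCs Lgr4 was at 23.4 and 14.7 against 36.5 and 29.7 CPM (−0.76, adjusted p = 0.0318), with −0.31 in the shared cluster (adjusted p = 0.666), and the call was kept in 1 of the 4 fits that leave out a library. Lgr5 in GPCHOs was at 1.39 and 1.203 against 0.352 and 0.410 CPM (1.82, adjusted p = 0.00605, and 0.0687 without control replicate 1).

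**Figure D3:**
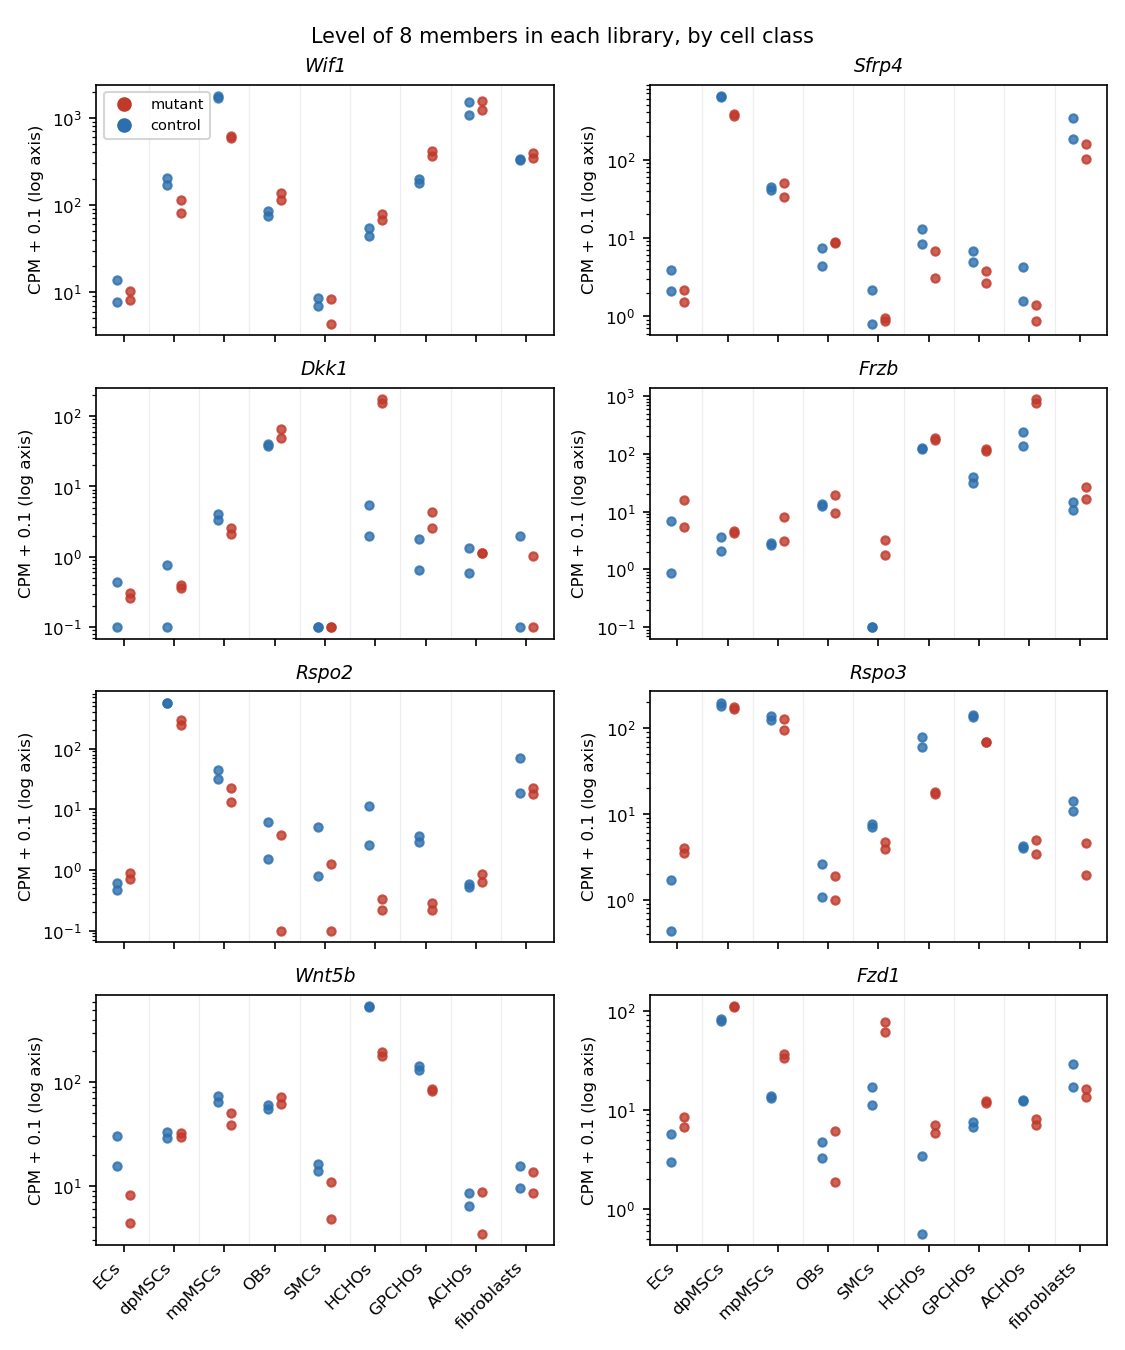
Level of 8 members (CPM + 0.1, log axis) in each of the 4 libraries, by class; a point is 1 library, mutants in red and controls in blue. Wif1 in mpMSCs stands at 622.5 and 590 in the mutants and 1781 and 1689 in the controls, and Dkk1 in HCHOs at 153 and 174 against 5.43 and 1.85.

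In GPCHOs all 10 of the secreted antagonists that were tested were called, 9 higher and 1 lower (Sfrp4), where 34.8% of all genes were called, 19.1% higher and 15.7% lower. Members that pass the filter through the group where they are high had to differ, so this share is a description. In the shared cluster only Wif1 and Sfrp5 of these were called, and Dkk1, Dkk2, Sfrp2 and Sfrp4 were not tested there. Wif1 was at 360 and 413 CPM in the mutants and 177 and 196 in the controls (log2 fold change 1.13, SE 0.072, adjusted p = 1.18e-07, edgeR), and the shared cluster gave 0.38 (adjusted p = 0.00765). Sfrp5 was at 52.6 and 58.4 against 27.8 and 20.9 CPM (1.27, SE 0.10, adjusted p = 1.06e-06), with 0.70 in the shared cluster (adjusted p = 0.0465). Both had every mutant library above every control library. Sfrp5 was a leading gene of cluster 13, which was among the 3 largest clusters of the mutant GPCHOs but not of the control ones. Frzb was at 121 and 111 against 31.1 and 40.2 CPM (1.78, adjusted p = 2.78e-08), with 0.75 in the shared cluster (adjusted p = 0.0627). Notum rose by little, with 73.8 and 67.0 against 60.1 and 60.8 CPM (0.30, adjusted p = 0.00272), with 0.27 in the shared cluster (adjusted p = 0.229).

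The other antagonists of GPCHOs rested on lower levels. Sfrp1 was at 2.71 and 5.11 against 1.197 and 1.57 CPM (log2 fold change 1.57, adjusted p = 0.00293, edgeR), with 0.60 in the shared cluster (adjusted p = 0.465), and Dkk3 at 5.73 and 6.09 against 2.96 and 3.49 (0.95, adjusted p = 0.00262), with −0.05 in the shared cluster (adjusted p = 0.957). Sfrp2 had 53 counts in the mutants and 6 in the controls (3.31, adjusted p = 0.000983), in 0.512% and 0.317% of the cells. Dkk1 was at 4.18 and 2.48 against 1.69 and 0.547 CPM (1.66, adjusted p = 0.00771; 0.0619 without mutant replicate 1, and 0.26 when cells were assigned by cluster). Dkk2 was called at 1.43 (adjusted p = 0.0486) although its libraries overlapped, at 1.47 and 7.14 against 1.90 and 1.503 CPM, and the alternatives gave values down to −0.12. Sfrp4 was lower, at 3.64 and 2.56 against 4.86 and 6.77 CPM (−0.83, adjusted p = 0.0187), a call kept under 4 of 11 alternatives, which gave values up to 0.25.

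In HCHOs the change in Dkk1 was the largest of any member. It was counted at 153 and 174 CPM in the mutants and at 5.43 and 1.85 in the controls, in 26.6% and 3.55% of the cells (log2 fold change 5.43, SE 0.21, adjusted p = 3.74e-09, edgeR). The controls held 17 counts of it, and this SE is smaller than counting error alone would give. The highest levels were in mutant cells of clusters 1 and 4, at 179 and 208 CPM and at 298 and 286 CPM. Of the control cells that passed the HCHO gate, each of these clusters held 1 to 3 per library. In cluster 2, Dkk1 was at 4.48 and 9.58 CPM in the mutants and 4.32 and 1.43 in the controls. The part of the clusters in the difference of the class was not tested. Frzb was at 177 and 189 against 123 and 125 CPM (0.54, adjusted p = 0.000272), but lower in the mutants in the shared cluster (−0.66, adjusted p = 0.0105). Wif1 was at 67.8 and 78.7 against 53.9 and 44.0 CPM (0.56, adjusted p = 0.00354, and 0.73 in the shared cluster, adjusted p = 0.0184). Both were counted in a smaller share of mutant than of control cells, Frzb in 51.3% and 55.3% and Wif1 in 20.7% and 33.3%. The mutant cells had the lower median depth. Notum had 110 counts in the mutants and 6 in the controls (2.25, adjusted p = 0.00323; shared cluster 3.34, adjusted p = 0.00556), in 1.84% and 1.06% of the cells. Sfrp4 was the antagonist called lower, at 2.98 and 6.62 against 8.35 and 12.96 CPM without overlap (−1.15, adjusted p = 0.0309). That call was lost without mutant replicate 1 (0.138) or control replicate 2 (0.0907), without a filter on low counts (0.138), with free RNA subtracted (0.0716) and in the shared cluster (−0.93, adjusted p = 0.252).

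**Figure D4:**
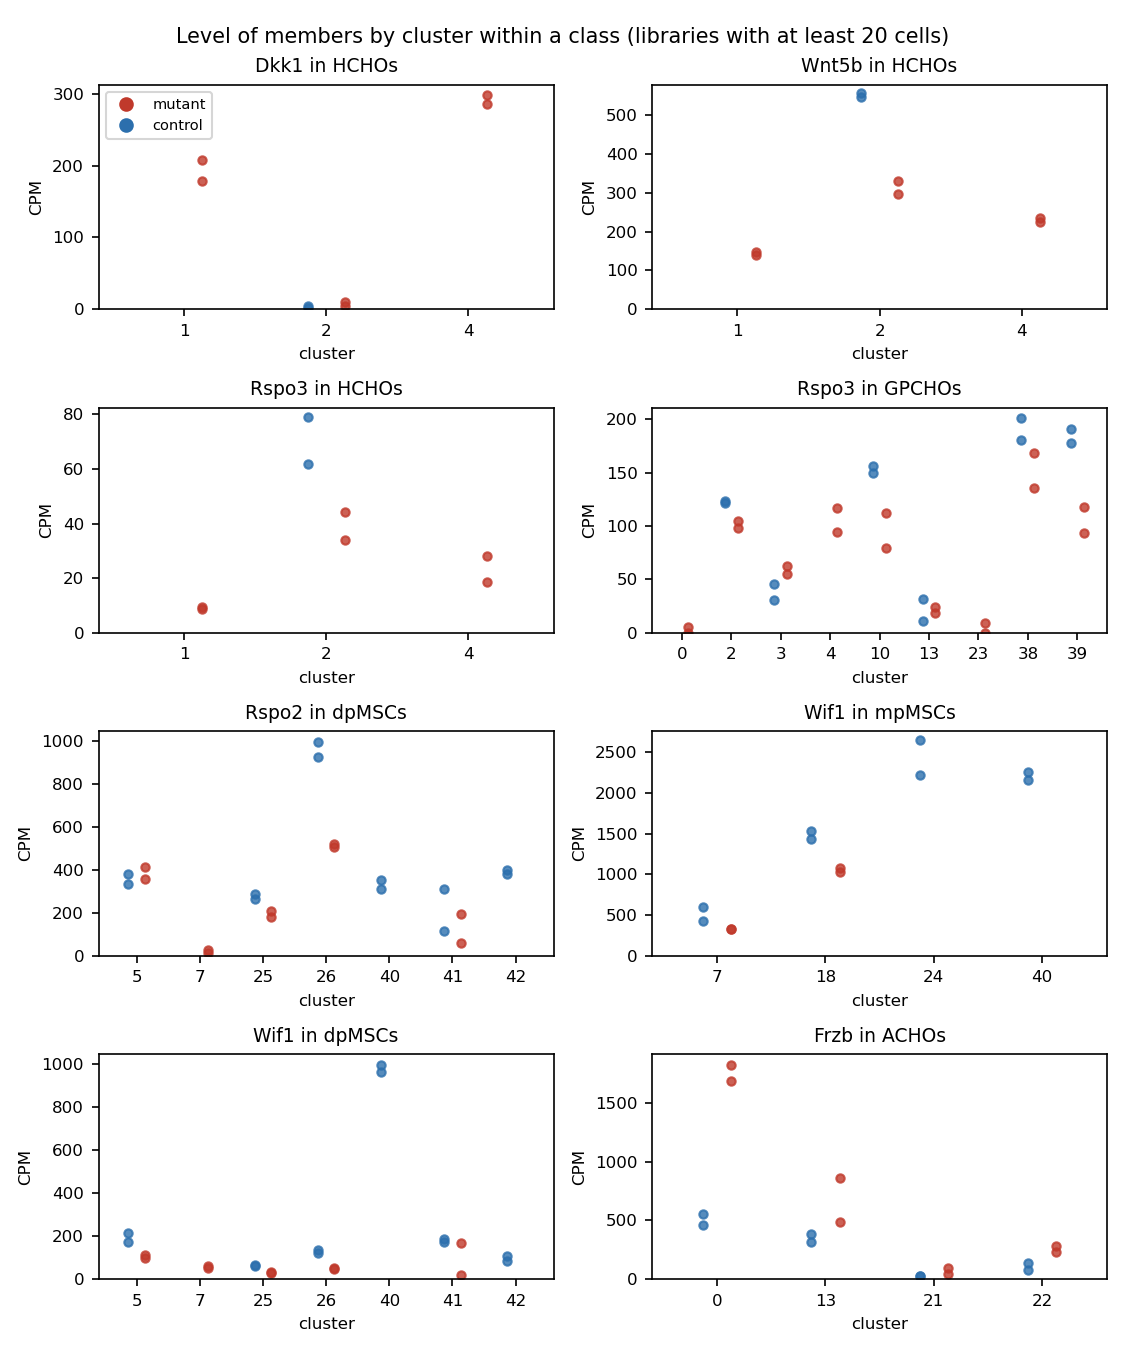
Level in CPM of selected members by cluster (x axis, cluster number) within a class, with a point for each library, mutants in red and controls in blue; a library with under 20 cells in a cluster is not drawn there. In HCHO cluster 2, shared by both groups, Dkk1 is at 4.48 and 9.58 in the mutants and 4.32 and 1.43 in the controls, and in dpMSC cluster 5 Rspo2 is at 356 and 416 against 383 and 335.

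In stroma the antagonists moved in both directions. Wif1 in mpMSCs was the member with the smallest p, at 622.5 and 590 CPM in the mutants and 1781 and 1689 in the controls, in 67.3% and 93.1% of the cells (log2 fold change −1.46, SE 0.069, adjusted p = 1.11e-10, edgeR), and the shared cluster gave −0.44 (adjusted p = 0.0466). In dpMSCs Wif1 was at 113 and 81.3 against 171 and 204 CPM (−0.92, adjusted p = 2.55e-05), with −0.86 in the shared cluster (adjusted p = 1.67e-06). In OBs Wif1 rose, with 114 and 136 CPM in the mutants and 74.5 and 84.4 in the controls (0.64, adjusted p = 0.00121, and 0.0507 without control replicate 1), and the shared cluster gave 1.03 (adjusted p = 1.75e-05). Sfrp4, which binds Wnt proteins, was at 357 and 382 against 634 and 650 CPM in dpMSCs (−0.76, SE 0.054, adjusted p = 7.43e-08), with −0.49 in the shared cluster (adjusted p = 6.96e-06). Sfrp2 rose in dpMSCs, at 12.9 and 11.6 against 5.88 and 6.90 CPM (0.97, adjusted p = 0.00316), with 1.62 in the shared cluster (adjusted p = 0.00196). Sfrp1 fell in mpMSCs, at 13.3 and 13.03 against 36.5 and 29.95 CPM (−1.28, adjusted p = 0.000301), with −0.28 in the shared cluster (adjusted p = 0.861). Dkk1 in OBs, at 48.9 and 66.6 against 37.3 and 40.7 CPM (0.56, adjusted p = 0.0195), lost its call without mutant replicate 2 (adjusted p = 0.433) or control replicate 1 (adjusted p = 0.148), and the shared cluster gave 0.26 (adjusted p = 0.581).

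In ACHOs Frzb was higher, at 748 and 882 CPM in the mutants and 139 and 241 in the controls (log2 fold change 2.15, SE 0.19, adjusted p = 0.000168, edgeR), and the shared cluster gave 1.29 (adjusted p = 0.00013). Frzb was a leading gene of cluster 0, the largest of the mutant ACHOs with 40.75% of them. The largest of the control ACHOs was cluster 22, with 39.4%. Sfrp5 was at 59.0 and 53.1 against 37.4 and 27.1 CPM (0.87, adjusted p = 0.0135), with −0.16 in the shared cluster (adjusted p = 0.941) and an adjusted p of 0.121 without a filter on low counts. In ECs Dkk2, a member outside the naming rule that was chosen after its values were seen, was at 37.97 and 32.8 against 52.1 and 48.0 CPM (−0.43, adjusted p = 0.00642), and in arterial ECs at 91.0 and 72.1 against 209 and 192 CPM with no test, and the shared cluster gave −1.26 (adjusted p = 7.75e-06). Of the 4 classes in which Wif1 kept its direction and call under every alternative, 2 had it lower (dpMSCs and mpMSCs) and 2 higher (GPCHOs and HCHOs). In HCHOs, however, Wif1 was counted in 20.7% of the mutant and 33.3% of the control cells.

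Axin2, a direct feedback target of β-catenin, was called in GPCHOs alone, at 6.11 and 5.68 CPM in the mutants and 4.09 and 3.49 in the controls (log2 fold change 0.73, SE 0.19, adjusted p = 0.0107, edgeR). The call was lost without control replicate 2 (adjusted p = 0.0658), and the shared cluster gave −0.19 (adjusted p = 0.765). In the 7 other classes in which it was tested its adjusted p was 0.254 to 0.987. Lef1, a transcription factor that partners β-catenin, was at 42.2 and 41.1 CPM in mutant ACHOs and 110 and 111 in control ACHOs (−1.36, SE 0.10, adjusted p = 6.36e-05), with −0.75 and no call when cells were assigned by cluster (adjusted p = 0.239). In GPCHOs Lef1 was at 190 and 211 CPM in the mutants and 240 and 232 in the controls, lower without overlap but not called (−0.15, adjusted p = 0.0574). It was called lower there in the shared cluster (−0.63, adjusted p = 0.0017), with doublets left out (0.0385), with free RNA subtracted (0.0478) and without mutant replicate 2 (0.0100). In dpMSCs Lef1 was not called (−0.04, adjusted p = 0.899), but was in the shared cluster (−1.15, adjusted p = 0.00686) and with cells assigned by cluster (−0.79, adjusted p = 0.0221). In mpMSCs it was at 25.3 and 30.1 against 55.5 and 44.1 CPM (−0.77, adjusted p = 0.00338), with −1.03 in the shared cluster (adjusted p = 0.258) and 0.17 when cells were assigned by cluster. In SMCs Lef1 was higher, at 11.0 and 11.4 against 2.81 and 0.691 CPM (2.702, SE 0.51, adjusted p = 0.00126, and 0.131 without mutant replicate 1), and in the pericyte-like subset at 17.4 and 14.9 CPM against 0 and 0. In ECs Lef1 was not called (−0.79, adjusted p = 0.135), but was called without mutant replicate 1 (−1.62) or control replicate 2 (−1.07), with doublets left out (−1.48, adjusted p = 0.000436), without a filter on low counts (−0.79, adjusted p = 0.00376) and with the replicate block (−0.78, adjusted p = 0.0364).

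**Figure D5:**
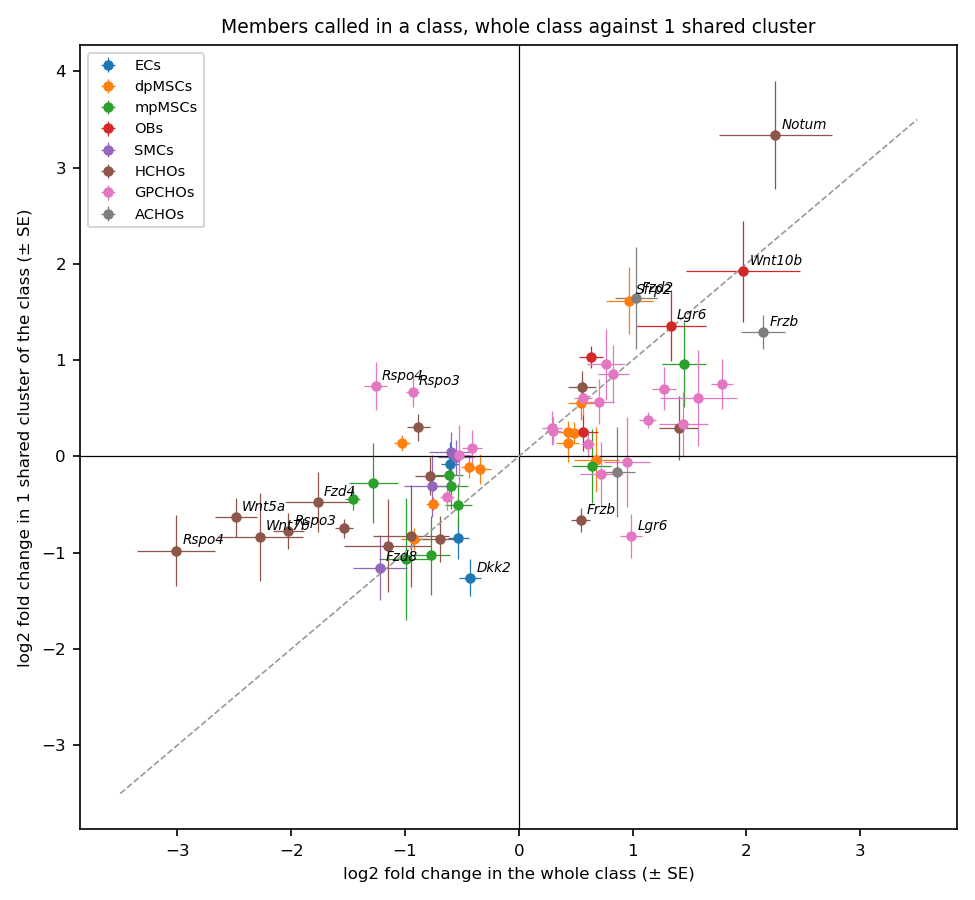
Log2 fold change of each called member in its whole class (x axis) against that in the best-shared cluster of the class (y axis), with 1 point per member and class that could be tested in both, coloured by class, bars for the nominal SE derived from the test and a dashed line of equality. Of 69 points, 55 have the same sign and 14 the opposite one, and 52 are smaller in the shared cluster.

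The size of the difference was compared between neighbouring classes in 1 fit. Between mpMSCs and dpMSCs 8 of 33 members differed (5.18% of all 14453 genes did); the count was 1 without control replicate 1 and 5 without control replicate 2. Wif1 (−0.54, adjusted p = 0.0349, edgeR) and Sfrp1 (−1.14, adjusted p = 0.0112) fell further in mpMSCs, and Fzd1 rose further (0.96, adjusted p = 0.00564). In the shared clusters the order of Wif1 was the other way, with −0.44 in mpMSCs and −0.86 in dpMSCs, as was that of Wnt5b, with −0.31 and −0.57. Sfrp4 had a value 0.75 higher in mpMSCs than in dpMSCs (adjusted p = 0.0263). The HCHO and GPCHO gates cut the cells differently in the 2 groups. Cluster 2, with 94.0% of the control HCHOs, was also among the 3 largest clusters of the mutant GPCHOs but not of the control ones. Between HCHOs and GPCHOs 15 of 38 differed (20.3% of all 16565 genes), 12 of them lower in HCHOs. The largest were Dkk1 (3.82, adjusted p = 6.25e-05), Fzd4 (−2.54, adjusted p = 4.87e-05), Wnt7b (−2.31, adjusted p = 0.0126), Wnt5a (−1.97, adjusted p = 1.03e-05) and Notum (1.96, adjusted p = 0.0163). In the shared clusters the order turned for Lgr6 (−0.20 in HCHOs and −0.83 in GPCHOs), Wif1 (0.73 and 0.38) and Fzd9 (1.45 and 0.13), differences that were not tested there.

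Another 67 genes of the pathway, from Wnt secretion to the nuclear complex, were read alongside. For these genes the values of the alternatives, the shared clusters included, are not given here, so how firm their calls are was not examined. In HCHOs 26 of 55 tested were called, 8 higher and 18 lower (47.3%, against 40.6% of all genes), and in GPCHOs 29 of 58, 14 higher and 15 lower (50% against 34.8%). In ECs 22 of 55 were called, 8 higher and 14 lower (40% against 35.8%), and in SMCs 23 of 54, 7 higher and 16 lower (42.6% against 25.1%). In dpMSCs 17 of 56 were called, 6 higher and 11 lower (30.4% against 22.5%), and in mpMSCs 16 of 56, 4 higher and 12 lower (28.6% against 20.8%). In OBs 5 of 58 were called, 4 higher and 1 lower (8.62% against 5.30%), in ACHOs 4 of 51, all higher (7.84% against 3.40%), and in fibroblasts 2 of 52, both lower (3.85% against 1.63%). Sost, which encodes an LRP5 and LRP6 antagonist of osteocytes, was at 55.9 and 46.0 CPM in mutant HCHOs and 2.51 and 3.70 in control HCHOs (log2 fold change 4.02, SE 0.27, adjusted p = 2.12e-07, edgeR), and at 7.25 and 7.998 against 1.26 and 0.929 in OBs (2.77, adjusted p = 0.000459). Sost was among the leading genes of clusters 1 and 4, in which most mutant but few control HCHOs lay. Myc, a target of many pathways, was at 36.1 and 28.4 against 8.35 and 7.41 CPM in HCHOs (2.00, adjusted p = 2.71e-05). Celsr2, a cadherin of planar polarity, was at 8.33 and 6.86 CPM in mutant HCHOs and 0.418 and 0 in control ones (4.95, SE 0.68, adjusted p = 0.000112), where the fitted fold rests on very few control counts and depends on the prior count. In GPCHOs it was lower, at 3.72 and 3.91 against 9.23 and 9.36 CPM (−1.20, adjusted p = 0.000111).

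Tnfrsf19, a surface receptor of the tumor necrosis factor family, fell in 4 classes. In mpMSCs it was at 273 and 201 CPM in the mutants and 711 and 736 in the controls (log2 fold change −1.57, SE 0.10, adjusted p = 4.06e-09, edgeR), in dpMSCs at 156 and 164 against 334 and 330 (−1.02, adjusted p = 1.10e-08), in SMCs at 2.97 and 3.10 against 15.5 and 16.6 (−2.33, adjusted p = 0.000244) and in GPCHOs at 2.48 and 1.95 against 5.70 and 5.95 (−1.31, adjusted p = 0.000557). Ptk7, a polarity co-receptor, was at 39.1 and 38.8 against 9.13 and 4.84 CPM in SMCs (2.51, adjusted p = 1.10e-05), and Nkd2 at 19.97 and 24.8 against 7.73 and 4.14 (1.96, adjusted p = 0.000551). In OBs Nkd2 was lower (−1.05, adjusted p = 0.0049). In ECs, Apcdd1 was higher (1.99, adjusted p = 0.00131) and Lypd6 (−2.18, adjusted p = 0.000717) and the Dishevelled antagonist Nkd1 (−1.91, adjusted p = 0.00664) were lower. In mpMSCs Apcdd1 was lower, at 8.65 and 14.5 against 36.8 and 36.1 CPM (−1.55, adjusted p = 5.65e-05), and Peg3 was higher (1.38, adjusted p = 0.0114). The cell cycle gene Ccnd1 was higher in dpMSCs (1.49, adjusted p = 0.000305), the Wnt receptor Ror1 was higher in OBs (1.69, adjusted p = 0.0209), and Gpc6 was lower in fibroblasts (−1.39, adjusted p = 0.0450). Sostdc1 in GPCHOs was at 0.851 and 0.752 against 0.282 and 0 CPM (2.53, adjusted p = 0.0194), likewise on few counts.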

How the data were processed

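Single-cell 3′ RNA sequencing data of non-hematopoietic cells from the femoral and tibial metaphysis were analysed in 2 Lats2iΔEC and 2 control libraries. Per the submitters' processing notes and the study's methods, the authors trimmed reads with cutadapt 3.5 and aligned and counted them with STARsolo 2.7.10a on mm39, with reads that map to several genes shared out by estimation; the deposited matrices hold estimated counts per gene and barcode, and 9.71 to 10.6% of their entries are fractions. Such sharing can move counts between near-identical genes.

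Barcodes needed at least 1000 UMIs and 800 genes, and a complexity of at least 0.8. Those with over 15% of UMIs from mitochondrial genes or over 5% from hemoglobin genes were left out. Cells were gated on marker scores into classes. Those with mixed scores, 2526 in all and a larger share in the mutants, were left out. A library pair shared 7 to 22 barcodes, and empty droplets were estimated to give 0.796 to 2.41% of the UMIs of a class. Scrublet's automatic threshold did not work on these libraries, so the highest scores, at 0.8% of barcodes per 1000, were removed in an alternative only. Estimated counts were summed per class and library, rounded and tested with edgeR 4.0.16 (TMM, quasi-likelihood F test; R 4.3.3), with Benjamini-Hochberg adjustment over all genes tested in the class and a minimum of 20 cells per library. CPM are counts per 1000000 UMIs of the class in the library. The SE given is the size of the log2 fold change divided by the square root of the F statistic. It is not a separate estimate, and where a group has few counts it can be smaller than counting error. Clusters came from Leiden clustering with scanpy 1.11.5 without the Wnt members. The test was also run on simulated counts, and the outcome is not given here. All 4 libraries are separate samples per the labels; p-values measure the spread among them. The smallest exact permutation p for 2 against 2 is 0.333, so single values have no such test.

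Replicate numbers are shared between the groups, but no label ties them to a litter or day, and the correlation of same-numbered deviations was −0.0249 to 0.103 over the 9 classes, so they were not treated as pairs. Members and gene lists were chosen with earlier results of these data known. Named were Axin2, Lef1, Lrp5, Lrp6, members counted in at least 20% of the cells of a class, and members past an adjusted p of 0.05 and a log2 fold change of 1 in size with no overlap. Other pathway genes were named by the 3 largest changes past both thresholds in each class. Some values are of members in classes where they do not meet this rule, such as Sfrp2, Fzd4 and Wnt5a in dpMSCs. Not every member and class that meets it is given, such as Fzd4 in ECs and Dkk3 in fibroblasts. Promoters are from RefSeq and were matched to GRCm39; Dkk3, Dkk4, Fzd10os, Fzd2, Fzd3, Fzd6, Fzd8, Lgr5, Lrp5, Lrp6, Notum, Rspo2, Rspo3, Sfrp1, Sfrp4, Wnt10a, Wnt5a, Wnt7b and Wnt8a were not in the promoter table. Alternatives were DESeq2 1.42.0, other filters on genes and cells, clusters in place of gates, subtraction of free RNA, doublets left out, each library left out and, chosen after seeing the data, the 1 cluster of a class that holds most cells in its smallest library.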

Additional observations from a re-analysis of the deposited data

Results flagged for a closer look

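Values given here are the log2 fold change of a member in one class minus that in a neighbouring class, each with its difference past an adjusted p of 0.05 in edgeR's quasi-likelihood test of the interaction. Of mpMSCs minus dpMSCs, the values were 0.96 for Fzd1, −0.59 for Lrp5, −1.14 for Sfrp1, 0.75 for Sfrp4, −0.54 for Wif1, −0.60 for Wnt4 and −0.62 for Wnt5b. For Wnt6 the value was 7.45, fitted on 12 counts in mutant mpMSCs and 0 in control ones; it depends on the prior count and is no bound.

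Of HCHOs minus GPCHOs, the antagonists had 3.82 (Dkk1), −1.25 (Frzb), 1.96 (Notum) and −0.59 (Wif1). The receptors had −0.90 (Fzd2), −2.54 (Fzd4), 0.81 (Fzd7) and −0.95 (Fzd9). The R-spondins and their receptor had −1.77 (Lgr6), −1.09 (Rspo3) and −1.76 (Rspo4), and the ligands −0.87 (Wnt4), −1.97 (Wnt5a), −0.91 (Wnt5b) and −2.31 (Wnt7b). The clusters that hold mpMSCs, dpMSCs, HCHOs and GPCHOs differ between the groups, and the part of that in all these values was not tested. In the shared clusters, Lgr6, Wif1 and Fzd9 had the higher fold change in HCHOs, the other order from these values, and so had Wif1 and Wnt5b in mpMSCs against dpMSCs.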

How the results depend on the processing

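Of the 88 calls, 17 were kept under every alternative that gave a value, 57 when each library was left out in turn and 55 with DESeq2. The counts of called members that follow come without the share of all genes called in the same fit. They are therefore not read as results about the members. The replicate numbers were not treated as pairs. A fit with the replicate block called 8 members in ECs, 14 in dpMSCs, 10 in mpMSCs, 4 in OBs, 9 in SMCs, 17 in HCHOs, 28 in GPCHOs and 6 in ACHOs, and 6 in fibroblasts, where none was called without it. DESeq2 called 3 members in ECs (6 in the report), 7 in dpMSCs (12), 4 in mpMSCs (10), 1 in OBs (4) and 3 in SMCs (7). The filter of 20% of cells left 2 in ECs, 6 in mpMSCs, 2 in OBs, 3 in SMCs, 10 in HCHOs and 12 in GPCHOs, since it tests fewer members. Without a filter on low counts, 12 were called in ECs and 2 in ACHOs. With clusters in place of gates, 10 were called in ECs, 14 in SMCs, 8 in ACHOs and 2 in fibroblasts; no value could be had for HCHOs, whose control cells numbered under 20. With doublets left out 1 was called in fibroblasts. In the 1 shared cluster, with fewer cells, 2 were called in ECs, 5 in dpMSCs, 1 in mpMSCs, 1 in SMCs, 8 in HCHOs, 8 in GPCHOs and 1 in ACHOs. In OBs, Lgr6, Wif1 and Wnt10b were called there. Leaving out each library gave 7 to 10 in ECs, 1 to 5 in OBs, 0 to 6 in SMCs, 4 to 7 in ACHOs and 1 to 6 for the difference between mpMSCs and dpMSCs.

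The 14 called log2 fold changes that took the other sign in the 1 shared cluster were those of Axin2 (−0.19), Dkk3 (−0.055), Fzd7 (0.090), Lgr6 (−0.83), Rspo3 (0.67), Rspo4 (0.73) and Wnt5a (0.012) in GPCHOs, Frzb (−0.66) and Wnt4 (0.30) in HCHOs, Rspo2 (0.14) and Wnt5a (−0.032) in dpMSCs, Wnt5a in mpMSCs (−0.10), Fzd2 in SMCs (0.045) and Sfrp5 in ACHOs (−0.16). With clusters in place of gates, those of Lef1 in mpMSCs (0.17) and Rspo3 in ECs (−0.58) changed sign. Sfrp4 (up to 0.25) and Dkk2 (down to −0.12) in GPCHOs, which had no shared-cluster value, also took the other sign among the alternatives. The cause was not tested. Depth limits members with few counts, of which 8 had under 30 counts in all classes together.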
